A study of Mus musculus with 8 samples.

Results

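Conventional dendritic cells type 2 (cDC2) were the 127 cells that carry this label in the authors' cell table, of 41,106 cells sequenced from the lungs of 8 mice. The label alone chose them here. The authors had annotated clusters of these same transcripts by known markers. Of the 127 cells, 74 came from mice exposed to cigarette smoke (CS) and 53 from mice kept in room air (RA). CS mice C2, C5, D2 and D5 gave 17, 14, 21 and 22 cells. RA mice F1, F3, M1 and M3 gave 6, 19, 15 and 13 cells, so RA mouse F1 was the smallest source by far.

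Conventional dendritic cells take up antigen in tissues, carry it to the draining lymph node and display it to T cells on major histocompatibility complex (MHC) molecules. They grow under FLT3 ligand and express the transcription factor ZBTB46, which monocytes and macrophages largely lack. In the lung, the type 2 subset is known for presenting antigen on MHC class II to CD4+ T cells. It shares many surface proteins with monocytes and macrophages, which makes the line between these cells hard to draw.

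All 8 mice were Sftpc-CreERT2-mTmG animals on a C57BL/6 background that received tamoxifen at 8 to 10 weeks of age, CS and RA mice alike. The Sftpc promoter marks type II alveolar epithelial cells in this line, so the reporter tells nothing about dendritic cells. The 4 CS mice were exposed for 10 months and the 4 RA mice breathed room air, each group labelled as 2 males and 2 females, and lungs were taken 1 day after the last exposure. CD45+ immune cells were added back to 10% of the suspension before droplet capture (10x Genomics 3' chemistry). Among cells without a multiplet or cell cycle label, 9053 of 40,074 carried an immune label, a larger part than 10%. It ran from 806 of 6371 in RA mouse F1 to 953 of 2553 in RA mouse M3. A share of immune cells below is a share of these labelled cells.

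The libraries held 31,882,952 to 55,485,617 transcripts, counted as unique molecular identifiers (UMIs), and each of 4 lanes held 1 CS and 1 RA mouse. A cDC2 cell held a median of 9712 UMIs (range 1586 to 29,644), with medians of 8071 to 11,049 in single CS mice and 8679 to 14,380 in single RA mice. In all 4 CS libraries and in no RA library, sex-linked transcripts went against the labelled sex. The libraries shared 197 barcode sequences, which touched 394 cells and 1 cDC2 cell. Values below are the mean number of transcripts per 10,000 over the cDC2 cells of a mouse, and n counts mice.

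The markers of the label were counted in its cells. Cd209a, a C-type lectin receptor, was found in 87 of the 127 cells. Clec10a, a lectin that binds galactose-type sugars, was found in 63 cells. H2-Ab1, the beta chain of the class II molecule I-A, was found in 106 cells. All 3 transcripts were found together in 53 cells (41.7%), against 2.98% of classical monocytes (cMono), 1.98% of the cells labelled M and 0% of B cells. The marker set was far more frequent under the cDC2 label than under any of these labels, although B cells were shallower, with a median of 4055 UMIs. The labels were drawn on the same transcripts, so this is no independent check. Other dendritic cell labels were not counted this way. None of the 3 markers was found in 9 cDC2 cells.

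Absence of both lectins did not mean absence of dendritic cell identity genes. Neither Cd209a nor Clec10a was found in 32 cells, and 26 of these held Flt3 or Zbtb46. Flt3 encodes the receptor for FLT3 ligand. Over all cDC2, 115 cells (90.6%) held Flt3 or Zbtb46, against 22.1% of cMono, 12.9% of M cells and 8.7% of B cells. Both genes are shared with cDC1. Flt3 had a mean over cells of 3.63 in cDC1 and 2.81 in cDC2, and Zbtb46 one of 3.78 and 3.17.

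A small number of cells stood apart. The authors' clustering put 121 of the 127 cells into 1 cluster, which also held 100 M cells, 65 cDC1, 48 plasmacytoid dendritic cells (pDC) and 39 mature dendritic cells. Another 5 cDC2 lay in a cluster with 661 cMono, and 1 lay in a cluster with 343 non-classical monocytes. Within the main cluster, 2 cells, from CS mice C2 and D2, held all 3 complement C1q transcripts and carried 98.1% of the C1q signal of cDC2. C1q is a macrophage product. The counts over all genes by cell type and by exposure were also made without these 8 cells, and the counts by list and by class II level were not.

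cDC2 were compared with cMono first. Monocytes circulate and enter tissue, where some take on dendritic cell features. The labels were drawn on the same transcripts, so the comparison is a description with no test. A gene counted as higher when its mean reached 1 per 10,000 in cDC2 and exceeded that in cMono by at least 2-fold in each of the 8 mice, with 0.1 added to both values. A ratio against a level near 0 is set largely by that 0.1. This held for 65 of 2297 genes (2.83%), and the reverse for 102 (4.44%). The counts depended on the rule, at 17 and 43 with 1 added in place of 0.1, at 27 and 56 for a 3-fold difference, and at 29 and 66 with cells thinned to 1000 transcripts. Without the 8 cells that stood apart they were 65 and 108. Shares of all genes by this rule are taken below over these 2297 genes, or over 2438 for M cells, of 33,027 in the matrix. Counts by list are over all measured members, and a member with a mean under 1 in both types can meet neither rule. The bases of both shares are thus unlike.

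Zbtb46 and Flt3 set cDC2 apart from cMono in every mouse. Zbtb46 lay at 3.86, 3.2, 3.38 and 2.03 in CS mice C2, C5, D2 and D5 and at 2.18, 2.54, 4.21 and 4.03 in RA mice F1, F3, M1 and M3. In cMono it lay between 0 and 0.159, so the ranges were far apart. The mean in cDC2 was 3.18 ± 0.846 (SD, n = 8), and the median ratio over mice was 16.7. Flt3 lay at 1.99, 2.68, 2.31 and 3.32 in CS mice and at 3.12, 2.65, 2.5 and 4.38 in RA mice, in the same order. Its level in cMono was 0.175 to 0.868, again with no overlap. Of 19 measured genes shared by conventional dendritic cells, 5 met the rule, against 2.83% of all genes, and none met its reverse. The 5 were Zbtb46, Flt3, Bcl11a, Itgax and Dpp4. Without the rule 10 of the 19 were higher than in cMono in 8 of 8 mice and none was lower in all 8. No share over all genes was taken for this looser count. Bcl11a, a transcription factor of dendritic and B cell development, reached 2.75 ± 1.44 (SD, n = 8) against 0.387 ± 0.201. Dpp4, the surface peptidase CD26, reached 1.46 ± 0.612 against 0.231 ± 0.0941.

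The lectin Cd209a lay at 2.56, 6.3, 6.48 and 4.32 in CS mice and at 8.78, 7.14, 6.34 and 6.23 in RA mice. It never exceeded 0.66 in cMono or 0.619 in M cells. Its median ratio was 11 to cMono and 17.2 to M cells. Among all 32 cell types only mature dendritic cells held more, with a mean over cells of 8.41 against 5.73 in cDC2. Clec10a was weaker as a mark of the subset. It lay between 0.887 and 3.58 in the 8 mice and was higher than in cMono in 8 of 8, but it failed the 2-fold rule. Its mean over cells in pDC, 2.32, was about that in cDC2, 2.26. Of 25 measured genes linked to the subset, 2 were higher and 0 lower than in cMono by the rule (2.83 and 4.44% of all genes). Against M cells 2 were higher and 2 lower by the rule (3.98 and 7.34% of all genes).

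Both genes with the largest ratios over cMono are better known from lymphocytes. Cd7, an immunoglobulin superfamily protein of T and NK cells, lay at 3.41, 5.44, 4.27 and 6.4 in CS mice and at 4.06 to 6.09 in RA mice. In cMono it was 0.00302 ± 0.00854 (SD, n = 8), a single positive mouse, and it was at 0 in M cells of all 7 mice compared. Cd7 was found in 78 cDC2 cells (61.4%), against 0.149% of cMono and 0.343% of B cells. Its mean over cells was 5.45 in pDC and 4.9 in cDC2. Klrd1, which encodes the NK receptor chain CD94, followed with a median ratio of 35.2 and a mean of 3.59 ± 1.24 (SD, n = 8). Aff3, a transcription elongation factor, had a median ratio of 25.5, and Ust, a sulfotransferase that modifies glycosaminoglycans, one of 18.8. Ctnnd2, P2ry10, Srgap3 and both class II chains H2-Eb1 and H2-Aa completed the 10 genes with the highest ratios, at 11.1 to 14.2. Of the lymphocyte marker lists, 0 of 10 T cell markers, 0 of 9 measured B cell markers and 1 of 8 NK cell markers (Klrk1) were higher than in cMono by the rule, against 2.83% of all genes, a share at which lists this short would hold few or none. In these lists 9 T cell, 6 B cell and 6 NK cell markers were found in under 5% of cDC2, which leaves little room to meet the rule. A transcript of a B cell marker was found in 88 of 127 cells.

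The lowest ratio to cMono was that of Apoe. Apoe, the lipid carrier, was 0.18 ± 0.399 (SD, n = 8) in cDC2 and 17.6 ± 5.47 in cMono. Plcb1, a phospholipase, was 0.0511 ± 0.0513 against 15.1 ± 1.92. Thbs1, the matrix protein thrombospondin, was 0.23 ± 0.382 against 16.8 ± 6.68. Chil3, Hp, Cxcl2, F10, Sgms2 and Mgst1 were also among the 10 genes with the lowest ratios. Of 15 classical monocyte markers, 9 met the rule for lower genes, against 4.44% of all genes, and none for higher ones. Vcan, a matrix proteoglycan of monocytes, was found in 0 of 127 cDC2, which allows a share of cells with a UMI of up to 2.36%, and in 46.6% of cMono.

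Other monocyte genes were lower but not missing. Ccr2, the receptor that draws monocytes out of bone marrow, was 3.12 ± 1.35 in cDC2 and 8.01 ± 2.09 in cMono (SD, n = 8), lower in 8 of 8 mice. Csf1r, the receptor for macrophage colony-stimulating factor, was 1.37 ± 0.455 against 5.5 ± 0.616. Plac8 was 9.5 ± 2.17 against 27.3 ± 7.7. Ly6c2, the monocyte surface antigen Ly6C, was found in 37.8% of cDC2 and 79.9% of cMono, against 1.37% of B cells. Sirpa, often used to gate cDC2, was below the level of cMono in 8 of 8 mice, at 1.63 ± 0.484 against 4.43 ± 0.378.

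**Figure D1:**
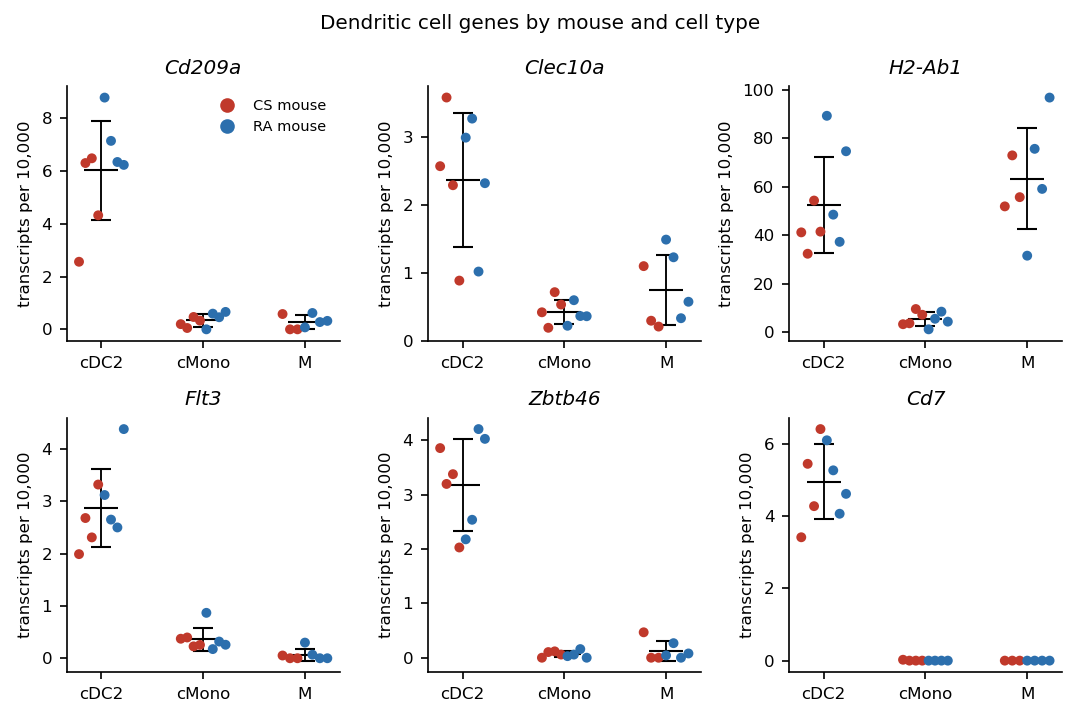
Mean transcripts per 10,000 of 6 genes in cDC2, cMono and the cells labelled M, 1 point per mouse (CS red, RA blue), with the mean and SD over mice as a black bar. Cd209a, Flt3, Zbtb46 and Cd7 of cDC2 lie above both other types in every mouse, Clec10a is higher within each mouse but its range touches that of M cells, and H2-Ab1 separates cDC2 from cMono but not from M cells.

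M cells had a different set of differences. The abbreviation is not spelled out in the labels. These 101 cells held the highest mean level of C1qa of all 32 types, and in the text below they are called M cells. The comparison used the 7 mice with at least 5 cells of both types, since CS mouse C2 held 3 M cells. By the same rule 97 of 2438 genes (3.98%) were higher in cDC2 and 179 (7.34%) were lower, and without the 8 cells apart the counts were 95 and 184. They were 46 and 74 with 1 added in place of 0.1, 55 and 104 for a 3-fold difference, 177 and 246 over the 4 mice with at least 10 cells of both types, and 42 and 78 with cells thinned to 1000 transcripts.

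The abundant class II genes H2-Ab1, H2-Aa, H2-Eb1 and Cd74 were each higher in cDC2 than in M cells in only 1 of 7 mice. H2-Ab1 was 52.4 ± 19.8 (SD, n = 8) in cDC2 and 63.4 ± 20.7 (SD, n = 7) in M cells. Of 15 genes of class II presentation, 1 met the rule for higher genes, against 3.98% of all genes, and none was lower by the rule. It was Ifi30, a thiol reductase of antigen-processing compartments. Without the 2-fold rule and its level of 1, 3 of the 15 (Ifi30, H2-DMb2 and Ctse) were higher than in M cells in 7 of 7 mice and 2 (Ctss and Lgmn) were lower in all 7. H2-DMb2, a chain of H2-DM, was 1 ± 0.837 (SD, n = 8) in cDC2 and 0.0893 ± 0.118 (SD, n = 7) in M cells, and H2-Oa, a chain of H2-O, was 1.08 ± 0.672 and 0.0588 ± 0.108 and higher in 6 of 7 mice. Against cMono, 8 of the 15 had met the rule, with 2.83% of all genes. Of 19 shared conventional dendritic cell genes, 5 were higher than in M cells by the rule, against 3.98% of all genes, and none was lower. The 5 were Flt3, Zbtb46, Bcl11a, Cbfa2t3 and Dpp4. Without the rule 9 were higher in 7 of 7 mice and 1, Id2, was lower in all 7. No share over all genes was taken for either looser count. Flt3 was 0.0598 ± 0.109 in M cells (SD, n = 7) and Zbtb46 0.122 ± 0.18, with median ratios of 24.1 and 21.3. Cbfa2t3, a transcriptional corepressor, was 4.02 ± 1.62 in cDC2 and 0.18 ± 0.145 in M cells.

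Several genes shared with monocytes marked cDC2 off from M cells. Plac8 had the highest median ratio, 72.4, and was 0.111 ± 0.142 in M cells (SD, n = 7). Of 15 classical monocyte markers, 4 were higher than in M cells by the rule, against 3.98% of all genes, and none was lower. Plac8, Ms4a4c and S100a4 were among the 4. Napsa, an aspartic protease, had a median ratio of 30.3 and was found in 93.7% of cDC2 and 14.9% of M cells. Gcnt2, a glycosyltransferase, had one of 42.7, and Ifitm6, of the interferon-induced transmembrane family, one of 25.3.

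Macrophage genes were low in cDC2. Of 18 interstitial macrophage markers, 16 met the rule for lower genes, against 7.34% of all genes, and none for higher. C1qa was at 0 in 5 of the 8 mice, and its levels of 2.17 and 3.43 in CS mice C2 and D2 came from the 2 cells described above. In M cells it was 53.2 ± 9.07 (SD, n = 7). Apoe was 123 ± 33.6 in M cells (SD, n = 7) and at 0 in cDC2 of 4 of the 8 mice. Pf4, a platelet-type chemokine, was found in 0 of 127 cDC2, which allows up to 2.36%, and in 65.3% of M cells. Several inflammatory mediators of M cells were low as well. Of 25 cytokines and chemokines, 8 met the rule for lower genes, against 7.34% of all genes, and none for higher. The 8 were Cxcl2, Ccl2, Il10, Ccl3, Cxcl10, Tnf, Ccl4 and Cxcl16. Il1b was not among them, at 11.5 ± 5.54 (SD, n = 8) in cDC2, 11.5 ± 6.9 in cMono and 12.9 ± 7.12 in M cells.

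**Figure D2:**
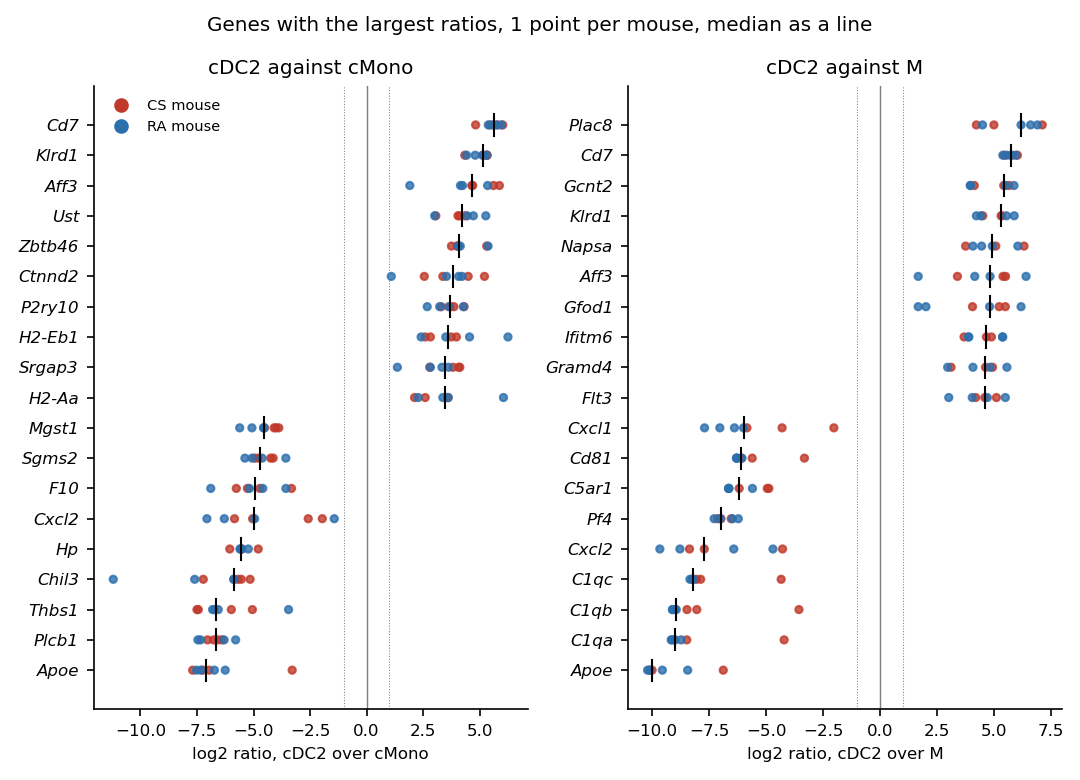
Log2 ratio of cDC2 over cMono (left, 8 mice) and over M cells (right, 7 mice) for the 10 genes with the highest median ratio and 9 of the 10 with the lowest among those that met the 2-fold rule, 1 point per mouse and a black line at the median. Dotted lines mark a 2-fold difference, and every point lies outside them. Single mice approach them, such as RA mouse F3 for Ctnnd2.

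Both rules were met together by 23 higher genes and by 23 lower genes. The higher ones were Kcnn4, Map4k1, Gm20708, Cd7, Zbtb46, Mrtfa, Flt3, Nectin1, Cd209a, Phlpp1, Stat5a, Klrd1, Ap1s3, Bhlhe40, P2ry10, Ramp3, Dpp4, Arap2, Bcl11a, Klrk1, Kdm2b, Il1r2 and Aff3. The comparisons share the cDC2 values of the same mice. Of the 23 higher genes, 2 had their highest mean over cells in cDC2 among all 32 types. Kcnn4, a calcium-activated potassium channel, was 3.02 in cDC2 and 1.16 in cDC1. Its levels by mouse were 2.74, 3.41, 2.86 and 2.72 in CS mice and 2.2, 3.98, 3.77 and 1.84 in RA mice. Map4k1, a kinase of lymphocyte receptor signaling, was 1.85 in cDC2 and 1.36 in B cells.

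Surface receptor genes that mark neighbouring dendritic cell types were compared next. Xcr1, the chemokine receptor of cDC1, was found in 0 of 127 cDC2, which allows up to 2.36%, and Clec9a, the cDC1 receptor for dead cells, was 0.52 ± 0.236 (SD, n = 8) in cDC2 with a mean over cells of 3.5 in cDC1. Siglech, a pDC receptor, was 0.215 ± 0.196 in cDC2, with a mean over cells of 20 in pDC. Ccr7, the receptor that guides mature dendritic cells to lymph nodes, was found in 26 cDC2 and was 0.66 ± 0.325, with a mean over cells of 8.14 in mature dendritic cells. The 10 pDC markers were uneven in cDC2. Tcf4 was found in 91 cells, while Klk1 and Cox6a2 were found in none, Ly6d in 3, Ccr9 in 7 and Siglech in 14. Mgl2, a lectin used for a subset of cDC2, was found in 14 cells.

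Class II genes were described next. Class II molecules are assembled from alpha and beta chains, such as H2-Aa with H2-Ab1. They are escorted by the invariant chain Cd74 and loaded with peptide by H2-DM, which H2-O restrains. Promoters of class II genes are known for a shared module of S, X and Y boxes, read by the coactivator CIITA. The Y box is a binding site of the factor NF-Y. RefSeq promoter windows (GRCm38.p6, 250 bases before to 50 after the transcription start) were given for 8 of 9 H2 genes of the class II list, with none for H2-Ab1, and 2 are printed to show the Y box ahead of genes whose levels are summed per cell below. The octamer CTGATTGG is in capitals. H2-Aa is chr17:34287774-34288073, minus strand, and H2-Eb1 is chr17:34305617-34305916, plus strand, each read in the direction of transcription.
H2-Aa: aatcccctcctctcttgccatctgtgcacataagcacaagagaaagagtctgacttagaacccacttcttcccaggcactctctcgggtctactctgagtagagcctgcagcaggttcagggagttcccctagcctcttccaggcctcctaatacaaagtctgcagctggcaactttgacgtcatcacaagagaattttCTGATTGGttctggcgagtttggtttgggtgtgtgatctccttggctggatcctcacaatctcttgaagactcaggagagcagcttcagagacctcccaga
H2-Eb1: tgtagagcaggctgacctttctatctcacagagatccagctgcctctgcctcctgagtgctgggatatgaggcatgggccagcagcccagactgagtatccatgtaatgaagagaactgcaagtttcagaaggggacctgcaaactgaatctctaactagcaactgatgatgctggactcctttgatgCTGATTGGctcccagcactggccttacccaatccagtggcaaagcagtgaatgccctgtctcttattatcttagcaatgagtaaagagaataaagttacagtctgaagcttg

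The octamer began 51 bases before the start of H2-Aa and 62 before that of H2-Eb1. Searched on both strands, it was in 4 of the 9 windows of these genes (H2-Aa, H2-Eb1, H2-Oa and H2-Eb2), against 4.1% of 32,851 windows of all genes. Its 6 letter core GATTGG, which overlaps it, was in 8 of the 9 windows, all but 1 of the pair of windows of H2-DMa, against 16.1% of all windows. These matches describe sequence only.

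Class II levels separated cDC2 from cMono without overlap between mice. H2-Ab1 lay at 41.2, 32.4, 54.3 and 41.5 in CS mice and at 89.2, 48.5, 37.3 and 74.6 in RA mice, while cMono lay between 1.27 and 9.63. H2-Aa ranged from 45.7 to 99.6 in cDC2 and H2-Eb1 from 33.4 to 97.1, with medians of their ratios to cMono of 11.1 and 12.3. Cd74 ranged from 129 to 292 in cDC2 and from 6.41 to 48.9 in cMono. The peptide-loading genes followed at smaller ratios, with H2-DMa at 7.48 ± 1.04 against 2.27 ± 0.589 and H2-DMb1 at 6.75 ± 1.7 against 1.5 ± 0.574 (SD, n = 8). The brake H2-Oa was 1.08 ± 0.672 in cDC2 and 0.0277 ± 0.0506 in cMono. Ctss, the protease that trims the invariant chain, went the other way and was lower in cDC2 than in cMono in 8 of 8 mice, at 9.46 ± 1.72 against 15.3 ± 1.78.

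Single cDC2 cells differed widely in class II. The sum of H2-Ab1, H2-Aa, H2-Eb1 and Cd74 ran from 0 to 1074 per 10,000, with a median of 296. It was below 1 in 10 cells, below 10 in 17 and below 50 in 27. The medians of other types were 2.6 in cMono, 87.2 in pDC, 213 in B cells, 488 in M cells and in cDC1, and 746 in mature dendritic cells. Cells at the level of a typical monocyte and cells at that of a mature dendritic cell thus carried the same label.

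To describe what went with this level, the cells were ordered by the sum and cut into tiers of 42, 43 and 42 cells. The cuts fell at 139 and 477. They divide a range and define no type, and 7 cells lay within 20% of the lower cut and 24 within 20% of the upper. The tiers were drawn after the values were seen, so no test is given. Their medians were 20.9, 296 and 680. Median depth was nearly even, at 9594, 9702 and 9923 UMIs. The shallowest cells, with 1586, 1942 and 2039 UMIs, all lay in the lower tier. The rank correlation of the sum with the UMI total within a mouse had a median of 0.2 over the 7 mice with at least 10 cells (range -0.118 to 0.496). The mean mitochondrial share was 1.08, 0.619 and 0.58%, and the widely expressed genes Hspa8 and H2afz were found in 83.3, 100 and 100% and in 73.8, 100 and 97.6% of the cells of the lower, middle and upper tier. The part of depth and RNA quality in the genes below was not tested. The lower tier came from 7 mice and held 27 CS and 15 RA cells, and the upper tier came from 8 mice and held 21 of each. RA mouse F1 had 5 of its 6 cells in the upper tier and none in the lower.

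**Figure D3:**
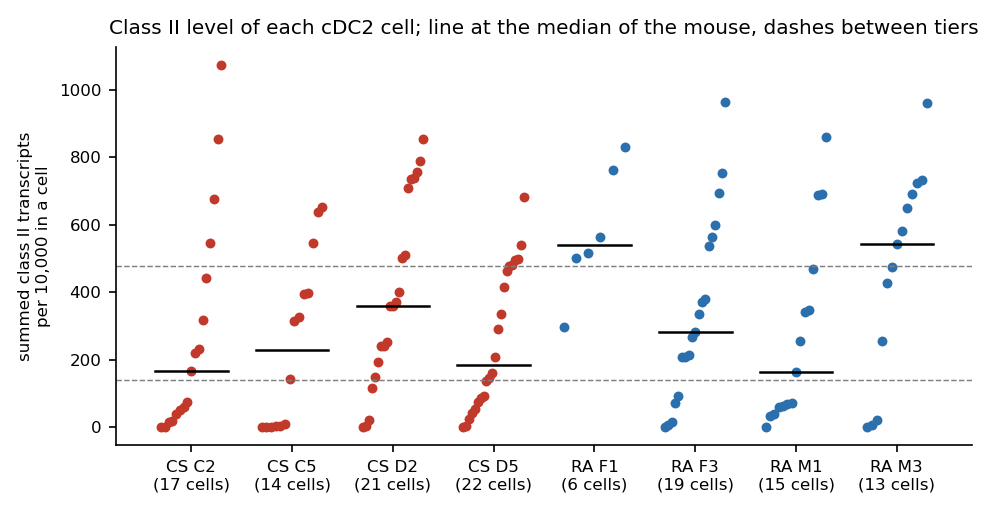
Summed transcripts per 10,000 of H2-Ab1, H2-Aa, H2-Eb1 and Cd74 in each of the 127 cDC2 cells, sorted within each mouse (CS red, RA blue), with a line at the median of the mouse and dashed lines at the cuts between tiers. Every mouse but RA mouse F1 holds cells near 0 and cells above the upper cut, and medians run from 163 in RA mouse M1 to 542 in RA mouse M3.

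Among shared conventional dendritic cell genes, Flt3, Zbtb46 and Dpp4 differed little between the lower and upper tier. Flt3 averaged 3.11, 2.76 and 2.55 over the cells of the lower, middle and upper tier. Zbtb46 averaged 3.94, 1.9 and 3.7, and Dpp4 1.29, 1.47 and 1.6. The lower tier thus had the highest means of Flt3 and Zbtb46, by small margins. Its Zbtb46 mean drew on shallow cells, with 13.5, 14.7, 20.4 and 18.7 at 2958, 2039, 2927 and 1586 UMIs. An upper tier cell of 2649 UMIs held 18.8. Flt3 was found in 36, 32 and 32 cells of the 3 tiers. Other genes of the same list sloped with class II, such as Bcl11a, at 4.43, 2.48 and 1.43, Cbfa2t3, at 5.45, 4.34 and 2.77, and in the other direction Runx3, at 2.05, 2.45 and 3.64. Sirpa was at 1.46, 1.86 and 1.65.

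Some genes that pDC also express averaged more in the lower tier. Of the 10 pDC markers 6 averaged more in the lower than in the upper tier, 2 averaged less and 2, Klk1 and Cox6a2, were at 0 in every tier. Of the 7750 genes found in 10% or more of the cDC2, 63.1% averaged more in the lower tier. The count of 6 of 10 did not exceed that share, and the single genes below were named after their values were seen. Tcf4, the transcription factor that defines pDC, averaged 14, 4.45 and 1.63, with 49.9 in pDC. Bst2, a tetherin that interferon induces, averaged 12, 4.19 and 1.26, with 31.8 in pDC. Runx2, a transcription factor used by pDC to leave bone marrow, averaged 7.51, 1.75 and 0.402. Cd7 sloped the same way, at 7.77, 5.38 and 1.52, with 5.45 in pDC. Gria3, a glutamate receptor subunit, had the largest ratio of lower to upper tier, 35.5, and was found in 32, 13 and 4 cells. Its rank correlation with class II was below 0 in 7 of 7 mice (median -0.629), a sign largely set by choosing the gene for its slope over the same cells. Ly6c2 averaged 4.85, 0.956 and 0.218. The pDC receptor genes were low, with Siglech at 0.597 in the lower tier (12 cells) against 20 in pDC and Ccr9 at 0.148 against 14.8. Irf7, an interferon regulatory factor, averaged 0.427, 0.389 and 0.476, with 1.4 in pDC, and Ly6d 0.014, 0.0254 and 0.0444, with 12.5 in pDC.

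The upper tier held more Il1b and more of several lectins and of the class II genes H2-Oa and H2-DMb2. Il1b, which encodes the cytokine interleukin-1 beta, averaged 2.26, 8.71 and 20.1, and its rank correlation with class II was above 0 in 7 of 7 mice (median 0.4). Like Gria3, Il1b was among the genes with the largest ratios between tiers, so this sign was largely set by that choice. Cd209a averaged 2.8, 6.43 and 7.92, and Clec10a 0.632, 1.84 and 4.32. Both lectins thus lay lowest in the cells with little class II, where Cd209a was still found in 21 of 42 cells. Clec4b1, another C-type lectin, was found in 0, 16 and 21 cells. A pair of lectins ran the other way along the tiers, with Cd209d at 1.85, 0.591 and 0.315 (21, 10 and 6 cells) and Clec9a at 0.894, 0.429 and 0.188 (22, 12 and 7 cells). H2-Oa and H2-DMb2, which were not in the sum, averaged 0.204, 0.66 and 2.02 and 0.185, 0.59 and 1.85. Ctse, a protease on the list of class II presentation, ran the other way, at 0.775, 0.247 and 0.151. Ccr7 averaged 0.157, 0.333 and 1.43, and Cd83, a surface protein of mature dendritic cells, 7.45, 9.8 and 14.8. Mgl2 was found in 1, 3 and 10 cells. Cd7 and Mgl2 met in only 2 cells, of 78 with Cd7 and 14 with Mgl2.

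**Figure D4:**
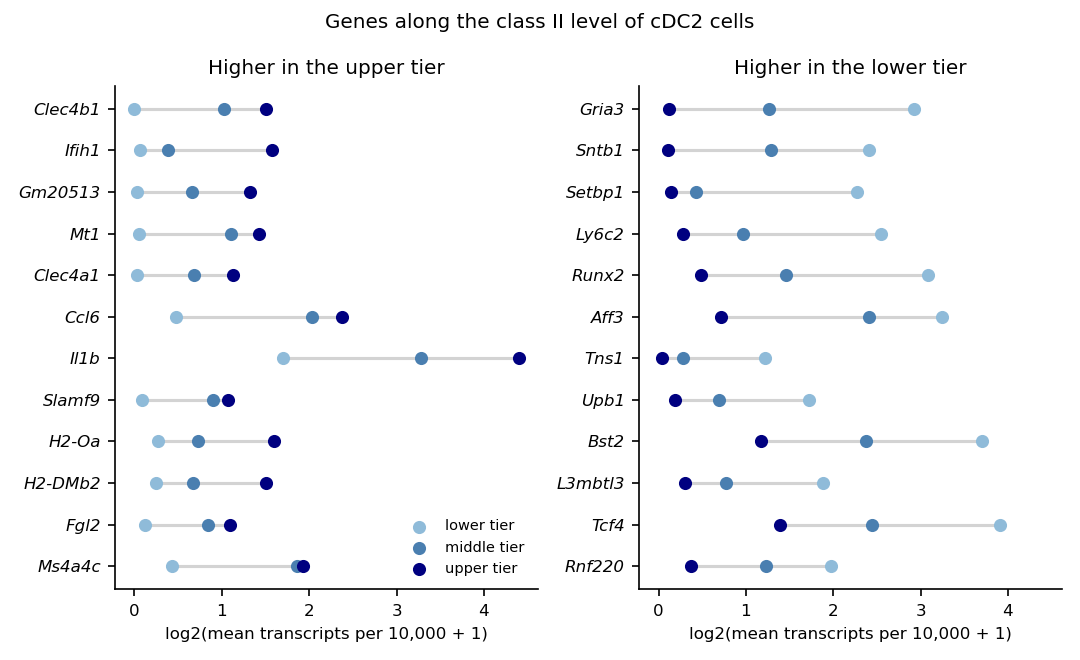
Mean transcripts per 10,000, as log2 of the mean plus 1, over the cells of the lower, middle and upper tier of class II level (light to dark), for the 12 genes with the largest ratio in each direction among genes with a mean of 1 or more that 25% or more of the cells of a tier held, leaving out the 4 genes of the sum. Il1b spans the widest range on the left and Gria3 on the right; the tiers were drawn after the values were seen.

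Marker lists of other cell types differed in their summed levels per 10,000 in cDC2. The 15 classical monocyte markers summed to 26.4 ± 5.02 (SD, n = 8), against 181 in cMono. The 10 pDC markers summed to 16.2 ± 7.66 (range 5.25 to 30.3), against 5.29 in cMono, and the 14 markers of mature dendritic cells to 9.8 ± 1.41, against 8.27. Of 9 endothelial markers the summed level was 2.2 ± 1.55 (SD, n = 8), of 11 epithelial markers 0.776 ± 0.514, and of 9 measured B cell markers 2.27 ± 1.11. The B cell markers lay at 1.95 to 4.38 in CS mice and at 1.2 to 1.98 in RA mice. Only 2 cells held any of 4 defining markers of alveolar macrophages. The mitochondrial share had a median of 0.449% and exceeded 5% in 1 cell.

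The share of cDC2 among immune cells was compared between CS and RA mice. It was 1.64, 1.1, 1.27 and 1.82% in CS mice C2, C5, D2 and D5 and 0.744, 1.74, 1.45 and 1.36% in RA mice F1, F3, M1 and M3. The groups overlapped. The means were 1.46 ± 0.328% and 1.33 ± 0.419% (SD, n = 4 each), a difference of 0.132 percentage points (exact two-sided permutation test, p = 0.686, with 0.0286 the smallest p this design allows). The lowest value, of RA mouse F1, rested on 6 cells and had a 95% Wilson interval of 0.342 to 1.61%, which covers counting error only. Without that mouse the difference was -0.0614. Within lanes the CS mouse was higher in 2 of 4.

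Expression in CS and RA mice was compared with limma, on log2 of a mouse's mean per 10,000 plus 1, for the 8270 genes that 10% or more of the cDC2 of at least 1 group held. No gene passed an adjusted p of 0.05 (0%), and 574 genes (6.94%) had an unadjusted p under 0.05. The smallest adjusted p was 0.35. All CS mice lay above all RA mice for 226 genes (2.73%) and below them for 106 (1.28%). The median log2 difference over all genes was 0.021. Each value of a mouse rested on 6 to 22 cells.

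Of 19 shared conventional dendritic cell genes tested, 0 were called and 2 (Kmo and Cd24a) had an unadjusted p under 0.05 (10.5%, against 6.94% of all genes tested). Kmo had a higher mean in CS mice and Cd24a a lower one. A lower fitted mean in CS mice was found for 12 of the 19, with a median log2 difference of -0.081. Over all genes tested, 55.3% had a higher one. Flt3 averaged 2.58 ± 0.573 over CS mice and 3.16 ± 0.855 over RA mice (SD, n = 4 each). Zbtb46 was 3.12 ± 0.779 and 3.24 ± 1.03, Cd7 4.88 ± 1.31 and 5 ± 0.875, and Clec10a 2.33 ± 1.11 and 2.4 ± 1, all with overlapping groups. Cd209a averaged 4.92 ± 1.85 over CS mice and 7.12 ± 1.18 over RA mice, a log2 difference of -0.51 ± 0.247 (SE; limma adjusted p = 0.703).

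Of 14 class II presentation genes tested, 11 had a log2 difference below 0 in CS mice, 3 had one above 0 and 0 were called. Of all genes tested, 55.3% had one above 0. H2-Ab1 averaged 42.3 ± 9.02 over CS mice and 62.4 ± 23.8 over RA mice (SD, n = 4 each), a log2 difference of -0.49 ± 0.229 (SE; limma adjusted p = 0.699). Cd74 was 156 ± 36.6 and 216 ± 67.1. Groups overlapped for both. Of the 14 genes, 6 had an unadjusted p under 0.05 (42.9%, against 6.94% of all genes tested), with a median log2 difference of -0.31 over the 14. The 6 were H2-Ab1, H2-Aa, H2-Eb1, Cd74 and Lgmn, with lower means in CS mice, and Ctse, with a higher one. RA mouse F1 had the highest level of H2-Ab1, 89.2, and 5 of its 6 cells in the upper tier. Without it 1 of 14 genes had such a p, against 6.54% of all genes, and the median was -0.20.

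**Figure D5:**
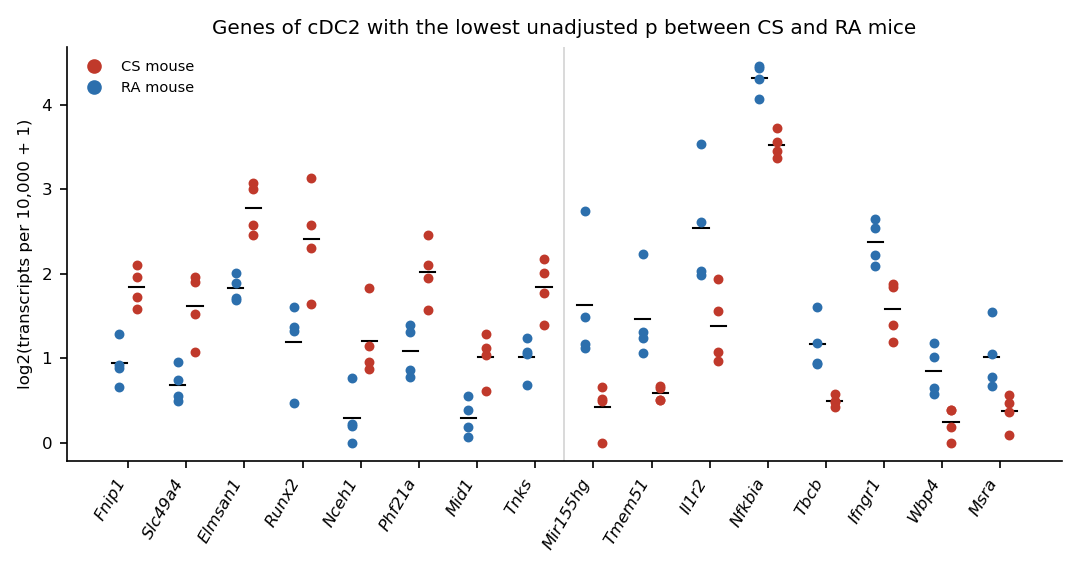
Level of 16 genes in cDC2 of each CS (red) and RA (blue) mouse, as log2 of transcripts per 10,000 plus 1, with a line at the group mean. The genes were chosen for the lowest unadjusted limma p among genes whose groups did not overlap, so the gaps between colors follow from the choice; none passed the adjusted threshold.

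By the rule that fixed the named genes, 8 with higher and 8 with lower levels in CS mice were taken for the lowest unadjusted p among the 5149 genes that 25% or more of the cDC2 of at least 1 group held, of which 145 (2.82%) lay wholly higher and 74 (1.44%) wholly lower in CS mice. Their limma adjusted p ran from 0.35 to 0.629. The higher ones were Fnip1, Slc49a4, Elmsan1, Runx2, Nceh1, Phf21a, Mid1 and Tnks. All 8 averaged more in the lower than in the upper class II tier, against 63.1% of the 7750 genes counted above. The lower tier held 27 CS and 15 RA cells and the upper tier 21 of each. Genes chosen for a higher level in CS mice are tilted to the lower tier by that mix, so the count is no separate evidence. Fnip1, a partner of folliculin in nutrient sensing, lay at 2.9, 3.3, 2 and 2.3 in CS mice and at 0.58, 0.85, 0.896 and 1.44 in RA mice. Its log2 difference was 0.90 ± 0.203 (SE; limma adjusted p = 0.35). Elmsan1, a subunit of a histone deacetylase complex, lay at 7.4, 6.99, 4.48 and 4.94 in CS mice and at 3.03, 2.22, 2.7 and 2.27 in RA mice. Runx2 lay at 7.76, 4.98, 2.11 and 3.94 in CS mice and at 1.5, 1.58, 2.05 and 0.383 in RA mice, so that CS mouse D2 nearly met RA mouse M1. Runx2 is also one of the pDC markers. The summed level of the 10 pDC markers in cDC2 was 21.8, 30.3, 11.4 and 20.4 in CS mice C2, C5, D2 and D5 and 5.25, 12.9, 13.4 and 14.6 in RA mice F1, F3, M1 and M3, with means of 21 ± 7.72 and 11.5 ± 4.25 (SD, n = 4 each) and overlapping groups. Of 6 pDC markers tested, 0 were called and 2 (Runx2 and Tcf4) had an unadjusted p under 0.05 (33.3%, against 6.94% of all genes tested), with higher means in CS mice. Runx2 was found in 47.3% of the CS and 50.9% of the RA cells. The median log2 difference over the 6 was 0.22. Without RA mouse F1 it was 0.032, and 2 of 6 had an unadjusted p under 0.05, against 6.54% of all genes. Klk1 and Cox6a2 were at 0 in cDC2 of every mouse. The part of the pDC markers in the differences by exposure, those of class II included, was not tested.

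The lower ones were Mir155hg, Tmem51, Il1r2, Nfkbia, Tbcb, Ifngr1, Wbp4 and Msra. Of these 8, 7 (all but Msra) averaged less in the lower than in the upper tier, a count that the mix of CS and RA cells in the tiers tilts as well. The part of the tiers in the differences of the 16 named genes was not tested. Nfkbia, the inhibitor of NF-kB that NF-kB itself induces, lay at 9.36, 12.2, 9.92 and 10.8 in CS mice and at 20.7, 15.7, 18.8 and 21 in RA mice. Its log2 difference was -0.79 ± 0.206 (SE; limma adjusted p = 0.457). In cMono of the same mice it was 7.8 ± 2.14 and 18.2 ± 5.15 (SD, n = 4 each), with the same sign. Il1r2, the decoy receptor for interleukin-1, lay at 1.1, 0.951, 1.95 and 2.83 in CS mice and at 10.6, 3.07, 5.11 and 2.97 in RA mice, the highest again in RA mouse F1. Ifngr1, a chain of the interferon-gamma receptor, was 2.04 ± 0.689 in CS and 4.25 ± 0.946 in RA mice, while in cMono it was 3.97 ± 0.379 and 4.05 ± 1.08. Mir155hg, the host transcript of miR-155, lay at 0 to 0.577 in CS mice and at 5.7, 1.17, 1.81 and 1.25 in RA mice.

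The list of chemokine and growth factor receptors included Il1r2 and Ifngr1. Of 15 such genes tested, 0 were called and 5 had an unadjusted p under 0.05 (33.3%, against 6.94% of all genes tested). Il1r2, Ifngr1, Csf2ra and Il10ra (4 of 15, against 1.28% of all genes) lay lower in all CS mice, and Ccr2 had a higher mean in CS mice with overlapping groups. Csf2ra, the GM-CSF receptor alpha chain, averaged 1.86 ± 0.433 over CS mice and 2.82 ± 0.336 over RA mice (SD, n = 4 each). Among smoke and oxidant response genes, 3 of 12 tested had an unadjusted p under 0.05 (25%, against 6.94% of all genes tested) and 0 were called. Ahr, the receptor for aromatic compounds of smoke, was 2.25 ± 0.834 in CS and 0.914 ± 0.469 in RA mice with overlapping groups (limma adjusted p = 0.626), and its target Cyp1a1 was found in 0 of 127 cDC2, which allows up to 2.36%. Of 18 pattern recognition and Fc receptors tested, 2 had an unadjusted p under 0.05 (11.1%, against 6.94% of all genes tested) and 0 were called. The smallest p was that of Cd14, the lipopolysaccharide coreceptor, at 2.82 ± 1.12 in CS and 6.18 ± 2.07 in RA mice with overlapping groups (limma adjusted p = 0.556). Of 12 cytokines and chemokines tested, 1 had such a p (8.33%) and 0 were called. It was Il1b, at 7.96 ± 2.92 and 15.1 ± 5.44 with overlapping groups (limma adjusted p = 0.629). Without RA mouse F1, 6 of 15 chemokine and growth factor receptors and 3 of 12 smoke and oxidant response genes had an unadjusted p under 0.05. The counts were then 1 of 18 pattern recognition and Fc receptors and 2 of 13 cytokines and chemokines, against 6.54% of all genes. Over all 8 mice, further lists lay on both sides of 6.94%. Of 20 tested genes linked to the subset, 1 (Csf2ra) had an unadjusted p under 0.05 (5%), and 0 of 7 interstitial macrophage markers had one. Of 16 immediate-early genes 4 had one (25%), and of 11 costimulation genes 2 (18.2%). None of these was called.

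The class II tiers were also compared between CS and RA mice. The lower tier held 47.1, 42.9, 19 and 40.9% of the cDC2 of CS mice C2, C5, D2 and D5 and 0, 26.3, 46.7 and 23.1% of those of RA mice F1, F3, M1 and M3, so the groups overlapped widely, and RA mouse F1 had 6 cells in all. With the mean class II level of each mouse as a term in limma, 1 gene was called, Gm47283 (adjusted p = 0.035), with 10.9 ± 3.06 over CS mice and 5.18 ± 2.31 over RA mice (SD, n = 4 each). That term is the sum of 4 of the class II genes themselves, so the fit says nothing about them. Differences by exposure were also compared between cDC2 and cMono of the same mouse, and 0 of 8609 genes passed an adjusted p of 0.05 in limma (0%), with 480 at an unadjusted p under 0.05 and a smallest adjusted p of 0.562.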

How the data were processed

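Lung cells of 8 mice were profiled by droplet single-cell RNA sequencing, with 1 library per mouse. The authors aligned reads with STAR 2.7.3a in STARsolo to GRCm38.p6, as their processing notes state, counted UMIs, removed free RNA with SoupX and assigned a cell type to each cell. The deposited matrix therefore holds estimated counts that are not whole (1.28% of values are whole within 1e-06). The deposited cell table also gives the percent of mitochondrial transcripts of each cell. Cell types, clusters and multiplet labels were taken from the authors, and multiplets (1025 cells) were left out.

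Each cell was scaled to 10,000 transcripts, and the mean over the cDC2 of a mouse was its value, for mice with at least 5 cells. For exposure, limma 3.58.1 (R 4.3.3; trend, log2 of the mean plus 1, no covariate) was run on genes that 10% or more of the cDC2 of at least 1 group held, with the Benjamini-Hochberg adjustment over those genes (threshold 0.05). No count model was used because the values are not whole. Shares were compared by an exact permutation test. The limma script was tested on simulated data. Cell types were compared by the 2-fold rule given with the results, without a test.

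Genes named in the comparisons were the 10 highest and 10 lowest median ratios per cell type, the 8 higher and 8 lower genes with the lowest unadjusted exposure p that did not overlap, genes called in an alternative, and members of fixed lists. Genes along the class II tiers, and those met by both cell type rules, were named after their values were seen. A few genes are not reported here. The members and the lists were chosen with earlier results of these data known. Nothing in the labels says more than that each library came from 1 mouse, and Wilson intervals and limits from a count of 0 cover counting error only.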

Additional observations from a re-analysis of the deposited data

Results flagged for a closer look

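Groups of 4 mice were searched for a value far from the other 3, relative to the range of the group. Of 68 such groups, over 34 measures, 2 held one, and chance gives about 1 in 20. Both were RA mouse F1. Mir155hg was 5.7 per 10,000 in cDC2 of that mouse and 1.17, 1.25 and 1.81 in the other RA mice. Tmem51 was 3.68 in that mouse and 1.09, 1.35 and 1.48 in the others. The values of this mouse rest on 6 cells.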

How the results depend on the processing

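The number of genes called by exposure in cDC2 was 0 with limma and also 0 with another pseudocount, other gene filters, summed counts, weights by cell number, lane as a block, labelled sex as a term, equal medians and without the 8 cells apart. Since sex-linked transcripts went against the labelled sex in all 4 CS libraries, the term for labelled sex may not adjust for sex. Among mice with at least 10 cDC2 the number called was 1 (Pde7b, limma adjusted p = 0.043), which is the fit without RA replicate 1 (F1). With the class II level of the mouse as a term, chosen after seeing the data, it was 1 (Gm47283). Leaving out 1 mouse at a time gave 0 to 1. The 16 named genes kept their direction in all 320 alternatives and none was called, with adjusted p between 0.0887 and 0.998. They had been chosen with groups that did not overlap, so most of these settings could not reverse their direction. Lane pairs 1 CS with 1 RA mouse, and the fit with lane as a block called 0 genes; replicate numbers pair no mice, so no paired analysis by number was possible because they were given in accession order. The contrast of cDC2 with cMono called 0 genes in all alternatives run.

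The difference in cDC2 share reversed to -0.0614 without RA replicate 1, and leaving out 1 mouse at a time gave -0.0614 to 0.271.

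Counts of genes between cell types followed the rule used. Against cMono the higher genes numbered 27 at 3-fold, 17 with a pseudocount of 1 and 29 with cells thinned to 1000 transcripts (67 to 75 with 1 mouse left out), and the lower genes 56, 43 and 66 (102 to 113). Against M cells the higher genes numbered 55, 46 and 42, or 177 among the 4 mice with at least 10 cells of both types (97 to 120), and the lower genes 104, 74 and 78, or 246 among those 4 mice (179 to 207). Each of these settings changes the threshold, the number of mice or the transcripts drawn. Of 560 values for single genes between cell types, 518 moved by less than 1 SD over mice, 42 by more, and 0 reversed. These genes had to differ 2-fold in every mouse, so most settings could not reverse them. Depth limits what 6 to 22 cells per mouse can show for genes near 1 transcript per 10,000.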
